A study of Mus musculus with 15 samples.

Results

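H3K4me3 peaks of CLPP-deficient brown adipocytes (CLPP-KO) were compared with those of untreated wild-type (WT) cells. The series holds 1 peak list for each of 3 conditions, 41519 peaks in all, and each list was made by the authors from 4 replicates together. Chromosomes 1 to 19 held 11988 WT peaks and 14461 CLPP-KO peaks, 26449 peaks that entered the comparison. CLPP-KO peaks without even 1 bp in common with any WT peak were called gained, and WT peaks without any base in common with a CLPP-KO peak were called lost. Overlapping peaks were joined into pairs where each was the other's partner with the largest overlap. This gave 3264 gained peaks, 268 lost peaks and 11120 pairs, of which 10430 joined a single peak of each list.

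The cells were mBA cells, brown preadipocytes grown from the mesenchymal stem cells of newborn mouse brown fat pads, immortalized with SV40 large T antigen driven by the PGK promoter, and differentiated into mature brown adipocytes before chromatin immunoprecipitation. The WT group carried an intact Clpp gene and the CLPP-KO group a Clpp knockout, and neither received any treatment according to the labels. Both grew in high-glucose medium without pyruvate. CLPP-KO cultures also received uridine, which cells with a defective respiratory chain need for growth. Whether WT cultures received it is not stated, and if they did not, genotype and uridine cannot be told apart in this comparison. The remaining condition of the study, WT cells given a cell-soluble form of 2-hydroxyglutarate (WT + 2HG), is quoted only as a value beside individual genes; it was read against the same WT list, so its values are no independent check. The cells came from control and knockout animals of both sexes that were pooled, and differences between the resulting lines cannot be told apart from the genotype.

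CLPP is the proteolytic subunit of a protease of the mitochondrial matrix, and its loss impairs the respiratory chain. H3K4me3, histone H3 trimethylated at lysine 4, marks nucleosomes around the start sites of active genes and of genes held ready for activation, and is found mainly at CpG-rich promoters. Broad H3K4me3 domains often cover genes that define the identity of a cell, and many developmental regulators that a cell does not use carry a narrow H3K4me3 peak together with the repressive mark H3K27me3. In brown adipocytes the mark lies over adipogenic and thermogenic regulators as well as over housekeeping genes.

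Each peak was described by its width and by its area, the area under the curve that the caller reported for the peak. Areas were not scaled between conditions: the median area was 3053 in the WT list and 5969 in the CLPP-KO list, and the median −log10 p at the summit was 10.1 and 15.9. Peak strength was therefore compared as a percentile, the rank of an area within its own list, where 100 is the strongest peak. As replicates were merged before peaks were called, no difference could be set against the spread between replicates, and no test between conditions was made. Intervals are 95% Wilson intervals for shares and 95% order-statistic intervals for medians, and they cover only the number of peaks counted.

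The sequence under leading peaks is shown first, because base composition differed between the gained, kept and lost peaks, although their ranges overlapped. Each line gives 300 bp of GRCm39 centred on the summit, 5′ to 3′ on the strand of the gene, with CpG dinucleotides in capitals. Windows that touched an annotated untranslated region were not printed. Hoxa10 (chr6:52210995-52211294, minus strand), Adamts15 (chr9:30832879-30833178, minus strand) and Gpr25 (chr1:136188240-136188539, minus strand) were gained, with 37, 29 and 36 CpGs. These counts lay above the median of 23 for gained peaks at coding starts (quartiles 17 and 30). Kept CLPP-KO peaks at coding starts had a median of 29 (quartiles 24 and 35).
Hoxa10: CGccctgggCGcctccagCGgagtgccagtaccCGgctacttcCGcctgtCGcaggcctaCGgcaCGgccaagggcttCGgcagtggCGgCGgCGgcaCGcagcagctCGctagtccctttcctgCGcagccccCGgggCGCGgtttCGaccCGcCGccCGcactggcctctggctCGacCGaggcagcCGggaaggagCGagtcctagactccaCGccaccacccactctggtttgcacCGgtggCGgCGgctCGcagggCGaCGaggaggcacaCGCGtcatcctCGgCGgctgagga
Adamts15: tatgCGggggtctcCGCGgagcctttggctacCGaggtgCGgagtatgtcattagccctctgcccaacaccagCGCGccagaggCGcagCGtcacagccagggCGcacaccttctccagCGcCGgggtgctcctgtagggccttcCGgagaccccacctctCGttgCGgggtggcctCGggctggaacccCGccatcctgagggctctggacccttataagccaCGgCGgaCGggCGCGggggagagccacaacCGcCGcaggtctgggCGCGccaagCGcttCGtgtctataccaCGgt
Gpr25: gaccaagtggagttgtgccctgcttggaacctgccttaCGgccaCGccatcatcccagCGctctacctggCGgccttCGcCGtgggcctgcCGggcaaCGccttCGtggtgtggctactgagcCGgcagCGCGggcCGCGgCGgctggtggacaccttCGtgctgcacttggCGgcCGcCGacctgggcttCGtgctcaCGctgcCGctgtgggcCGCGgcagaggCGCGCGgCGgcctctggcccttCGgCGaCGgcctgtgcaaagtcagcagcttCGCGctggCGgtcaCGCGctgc
Tbx18 (chr9:87612234-87612533, minus strand) had the largest gain in percentile, and its window held 40 CpGs. The Eif3k window (chr7:28680795-28681094, minus strand), shown for contrast from a lost WT peak, held 12.
Tbx18: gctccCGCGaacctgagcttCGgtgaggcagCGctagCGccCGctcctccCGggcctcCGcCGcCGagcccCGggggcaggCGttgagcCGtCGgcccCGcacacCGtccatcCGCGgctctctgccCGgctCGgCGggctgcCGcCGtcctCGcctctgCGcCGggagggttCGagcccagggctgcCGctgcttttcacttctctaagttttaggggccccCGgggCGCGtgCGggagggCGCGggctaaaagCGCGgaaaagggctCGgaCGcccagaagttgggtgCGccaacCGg
Eif3k: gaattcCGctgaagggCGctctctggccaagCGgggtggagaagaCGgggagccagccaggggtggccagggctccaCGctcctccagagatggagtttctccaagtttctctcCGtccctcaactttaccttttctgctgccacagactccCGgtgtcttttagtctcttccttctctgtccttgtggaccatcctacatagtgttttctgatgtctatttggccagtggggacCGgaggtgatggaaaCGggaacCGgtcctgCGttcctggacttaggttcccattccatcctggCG

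The Clpp promoter was examined first. Clpp had 1 promoter peak in each list, at chr17:57297232-57297892 in WT and chr17:57297239-57297867 in CLPP-KO. The width was 661 bp in WT and 629 bp in CLPP-KO, and the percentile was 38.9 and 41.9. Among the paired peaks alone, a scale explained below, Clpp ranked -9.54 points from its WT place. A promoter mark does not report on the deleted part of the gene, so this value does not check the knockout.

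Gained peaks made up 22.6% of the CLPP-KO list (3264 of 14461, 95% interval 21.9 to 23.3), and lost peaks 2.24% of the WT list (268 of 11988, 1.99 to 2.52). They came almost wholly from the weak end of their lists. With the CLPP-KO list divided by area into 10 bins of equal size, 82.8% of peaks were gained in bin 1, the weakest, 68.9% in bin 2 and 44.5% in bin 3. In each of the 4 strongest bins the gained share was at most 0.415%. The median gained peak lay at percentile 14.1 and was 482 bp wide (95% interval 473 to 493), against 990 bp for CLPP-KO peaks that overlapped a WT peak. All 268 lost peaks lay below the median of the WT list, at a median percentile of 4.83 and a median width of 436 bp. The highest percentile of any lost peak was 28.2. When the CLPP-KO list was shortened to its 11988 largest areas, the length of the WT list, 1344 peaks were gained and 771 lost.

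**Figure D1:**
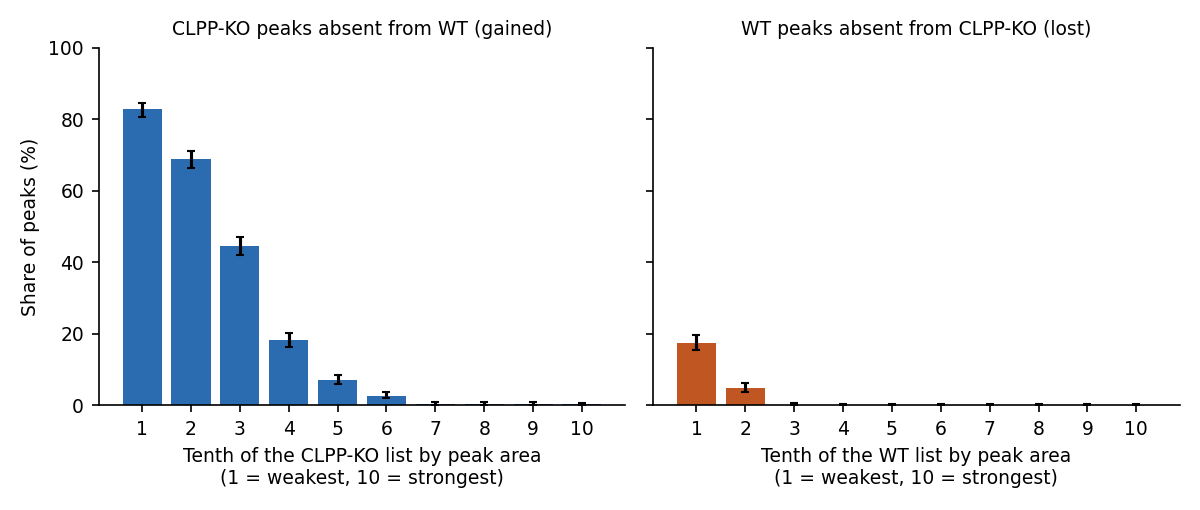
Share of CLPP-KO peaks that overlapped no WT peak (left) and of WT peaks that overlapped no CLPP-KO peak (right), for 10 bins of equal size of the own list ordered by peak area. Bars are percent of the peaks in the bin with 95% Wilson intervals, and the shares are 82.8% and 17.4% in the weakest bin and 0.277% and 0% in the strongest.

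Most gained peaks lay at promoters, but less often than kept peaks did. Of the gained peaks, 66.8% (2181, interval 65.2 to 68.4) overlapped the window of 2000 bp either side of a protein-coding start site, against 93.5% (10470 of 11197, interval 93.0 to 93.9) of CLPP-KO peaks that overlapped a WT peak. Another 14.2% of gained peaks lay at starts of noncoding transcripts, 6.77% had their summit in an exon away from a start, 6.62% in an intron and 5.64% between genes. For kept peaks these shares were 4.26%, 0.929%, 0.786% and 0.518%. Of the lost peaks 63.8% (171 of 268) lay at coding starts and 14.2% (interval 10.5 to 18.9) in introns, where the interval of the gained share was 5.81 to 7.52. Gained peaks within genes and between genes were the weakest, with median percentiles of 7.69 in introns and 7.06 between genes, against 16.2 at coding starts.

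Gained peaks were for the most part separate from WT peaks. The median distance to the nearest WT peak was 29174 bp, and 13.3% (435) lay within 1000 bp of one. At coding starts, 30.9% of gained peaks (673 of 2181) belonged to a gene that already had another WT promoter peak. A promoter peak in CLPP-KO only was found for 1447 coding genes, 7.08% of the 20445 on these chromosomes, and 13 of them had a strongest CLPP-KO peak that reached a WT peak beyond the promoter window. WT peaks marked 10790 coding genes and CLPP-KO peaks 12164, and 73 genes (0.357%) were marked in WT only. With lists of equal length the counts were 822 genes gained (4.02%) and 352 lost (1.72%).

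Gained peaks were found on each of the 19 chromosomes. The gained share ran from 14.7% of CLPP-KO peaks on chromosome 16 (60 of 408, interval 11.6 to 18.5) to 27.0% on chromosome 15 (179 of 664, interval 23.7 to 30.5).

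Most gained promoters had a weak peak in CLPP-KO. Of the 1447 gained genes, 56 had a CLPP-KO peak at or above the median of the list and 15 had one at or above percentile 75. Trim71, an RNA-binding ubiquitin ligase of early development, had a peak of 2495 bp at percentile 97.8 (chr9:114391163-114393657) and no promoter peak in WT. In the WT + 2HG list its peak was 1537 bp wide at percentile 38.2.

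Homeobox factors formed the next group. Irx2 had a CLPP-KO peak of 1988 bp at percentile 91.7 (chr13:72776050-72778037), and Lbx1, a homeobox gene of limb muscle precursors and spinal cord, one of 2440 bp at percentile 91.4 (chr19:45223011-45225450). Gbx2, a homeobox gene of the midbrain-hindbrain boundary, reached percentile 87.7. Genes of separate Hox clusters, which specify position along the body axis, followed. Hoxa10 (chr6:52210631-52212089) and Hoxd9 were both at percentile 86.4, and Hoxb2 (chr11:96243209-96244552) was at 80.7. The summit window of Hoxa10 printed above held 37 CpGs and that of Hoxb2 held 36. The WT + 2HG percentiles were 33.5 for Hoxa10, 11.3 for Hoxd9 and 38.2 for Hoxb2.

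Further transcription factors and a mixed group of genes followed. The transcription factors were Sim1 (percentile 80.4), needed for hypothalamic neurons, Sp9 (77.4), Dmrta2 (77.3) and Lhx8 (74.9), a LIM-homeobox gene used as a marker of brown fat. Lhx8 lay at percentile 5.32 in the WT + 2HG list. Outside transcription factors stood Gramd1b (78.3), a sterol transfer protein, Adamts15 (78.3), an extracellular protease, Gpr25 (63.4), an orphan receptor, Myo5b (61.3), a motor protein, and Pip5k1b (60.8), a phosphoinositide kinase. Apc2, Tac4 and Fkbp7 also counted as gained, but their peaks extended beyond the promoter window and overlapped a WT peak outside it. In the WT + 2HG list the strong genes named here with a gained peak lay at percentiles from 5.32 (Lhx8) to 54.1 (Gpr25). Apc2, Tac4 and Fkbp7 lay at 70.5, 75.1 and 78.1 in that list.

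Lost promoters were weak throughout. The gene with the largest lost area was Pspn, a ligand of the GDNF family, but its WT peak at percentile 37.0 overlapped a CLPP-KO peak outside the promoter window. Emilin1, an elastic fibre glycoprotein, followed with a WT peak of 789 bp at percentile 18.2 (chr5:31071177-31071965). Cpxm2 had a peak of 418 bp at percentile 17.7 and Fxyd6, a regulator of the sodium pump, one of 536 bp at percentile 16.2. The other leading lost genes, Shisal2a, Brd8 with Kif20a, Rem2, Eif3k with Map4k1, Cysrt1 with Rnf208, and Emp1, lay between percentiles 12.6 and 15.8. Of the 73 lost genes 1 lay at or above percentile 25 of the WT list.

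Paired peaks were wider in CLPP-KO. The median width was 858 bp in WT and 994 bp in CLPP-KO, and the median of the ratio within pairs was 1.10 (interval 1.09 to 1.10, quartiles 0.982 and 1.33). Of the pairs 71.2% were wider (7919 of 11120, interval 70.4 to 72.0) and 28.5% narrower. How the ratio varied with peak strength depended on the list used for ranking. The median ratio was 1.32 in the weakest quintile of the WT list and 1.05 in the strongest, but 1.04 in the weakest quintile of the CLPP-KO list and 1.07 in the strongest. At 6821 simple pairs over coding starts of a single strand, the upstream edge lay a median of 28.0 bp and the downstream edge 23.0 bp further out in CLPP-KO. Among the 620 of these that were at least 1.5-fold wider, the shifts were 201.5 bp upstream and 275.5 bp downstream, and 57.7% extended more on the downstream side. In addition, 603 CLPP-KO peaks spanned 2 or more WT peaks, whereas 90 WT peaks spanned 2 or more CLPP-KO peaks. The larger areas and summit −log10 p of the whole CLPP-KO list, given above, moved with this widening, and their part in it was not tested.

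Some of the largest gains in width were at promoters where several WT peaks corresponded to 1 CLPP-KO peak. Over Brd2, a bromodomain reader of acetylated histones, and its neighbour H2-DMa, 4 WT promoter peaks corresponded to 1 CLPP-KO peak of 5480 bp, the widest of that list on these chromosomes (chr17:34336715-34342194). Its WT partner was 1818 bp wide. At Egr2, an immediate early transcription factor, 3 WT peaks corresponded to 1 peak of 4099 bp, with a WT partner of 1239 bp. Mn1, a transcriptional coregulator with a single peak in each list, widened from 2475 bp in WT to 5287 bp in CLPP-KO. Hic1, a transcriptional repressor, went from 1093 bp to 3695 bp, Skor1 from 641 bp to 3015 bp and Mafa, a basic leucine zipper factor, from 207 bp to 2384 bp. The other 4 were Sall3, Tril, Tnrc18 and Tob2, with differences from 2180 to 2286 bp.

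The largest losses in width were mostly at promoters where 1 WT peak corresponded to 2 CLPP-KO peaks. Sim2, a basic helix-loop-helix PAS factor, had the largest difference, from 3210 bp in WT to 1394 bp in CLPP-KO, and its WT + 2HG peak was 3150 bp wide. Trip12, Nfib, Snai1, Glis3, Ehd2, Tnfrsf1b and Selenow had 1 WT promoter peak and 2 in CLPP-KO. Nfib, a CCAAT-binding nuclear factor, measured 3256 bp in WT and 1766 bp for its largest overlap in CLPP-KO, and Snai1, a repressor of epithelial genes, 2788 bp and 1410 bp. Map1a went from 1769 bp to 621 bp, and Gnas, an imprinted locus with several promoters, from 4333 bp to 3074 bp.

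**Figure D2:**
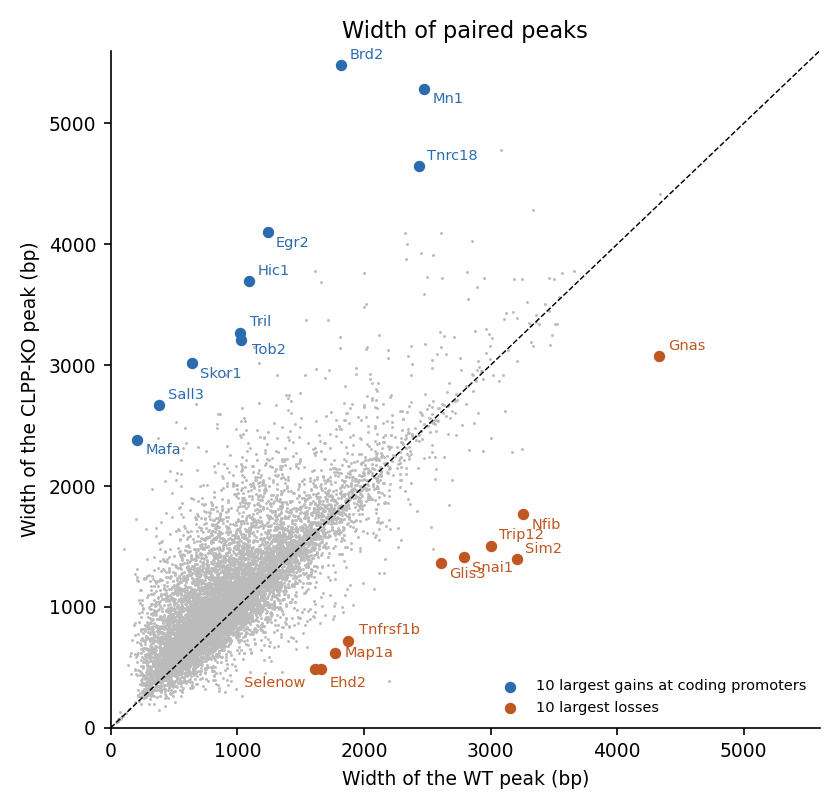
Width of the CLPP-KO peak against width of the WT peak in bp for 11120 pairs (grey), with the 10 coding promoters of largest gain (blue) and largest loss (orange) in bp. The dashed line marks equal width, and 71.2% of pairs lie above it.

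The percentile within the list was higher in CLPP-KO for 70.3% of pairs, with a median difference of 5.65 points (interval 5.35 to 5.94). The sign depended on the length of the lists, because the weak peaks without a WT partner lie at the bottom of the CLPP-KO list and raise the percentile of the peaks above them. When percentiles were taken among the 11120 paired peaks alone the median difference was -0.594 points (interval -0.818 to -0.405) and 47.0% of pairs were higher. Changes of single genes are therefore given on both scales where the call differs. Among coding genes with a pair, 34.6% ranked at least 10 points higher and 7.48% at least 10 points lower within the lists, and 18.2% and 22.5% among the pairs.

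Several genes near the bottom of the WT list were near the top of the CLPP-KO list. Tbx18, a T-box factor of mesenchymal and epicardial cells, lay at percentile 5.68 in WT, where its peak was 516 bp wide (chr9:87611963-87612478), and at percentile 98.5 in CLPP-KO with 2053 bp. En1, a homeobox gene of dorsal dermis and brown fat precursors, went from 18 to 95.4. Bmp6, a bone morphogenetic protein, went from 25.2 to 96.8. Hoxb9 went from 20.2 to 91.4, Foxf2 from 17.6 to 89.4 and Neurog2, a proneural factor, from 15.7 to 85.8. Adrb1, the beta-1 adrenergic receptor, went from 11.2 to 83.4 and widened from 844 bp to 2599 bp. Among the pairs these 6 developmental genes and Adrb1 ranked between 69.2 points (Neurog2) and 94.1 points (Tbx18) higher. Their WT + 2HG percentiles ran from 31.7 for Hoxb9 to 82.3 for Foxf2. Beside them stood H2-T5 (from 2.80 to 82.5) and H2-Q6 (from 25.1 to 95.3), nonclassical class I genes of the major histocompatibility complex. These belong to a family of near-identical copies between which short reads can be divided, so their values are uncertain. The last of the 10, the predicted gene Gm2102, went from 8.41 to 80.0. Adrb1, En1, Neurog2 and H2-T5 had 2 WT promoter peaks and 1 in CLPP-KO. At Adrb1 and H2-T5 the CLPP-KO peak covered both WT peaks, so the pair sets 1 of these against a peak over both.

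The largest differences towards a lower percentile included genes of mesenchyme and matrix, and all 10 also ranked lower among the pairs. Kazn, a desmosome-associated protein, went from 91.7 in WT to 35.7 in CLPP-KO and Map1a, a microtubule-associated protein whose WT peak lay above the median, to 15.3. Alx1, a homeobox gene of craniofacial mesenchyme, had 3 WT promoter peaks and 1 in CLPP-KO, and its pair went from 46.5 to 5.28. Igfbp2, a binding protein of insulin-like growth factors, went from 81.2 to 42.1. Serpinh1, the chaperone of collagen folding, went from 80.5 to 44.9. Rrm1, a subunit of ribonucleotide reductase, went from 72.0 to 33.3 although its width was nearly the same, 770 bp and 700 bp. Nfatc4, Glis3, Ehd2 and Sim2 completed the 10. Sim2 had been at percentile 99.9 in WT, was at 65.7 in CLPP-KO and at 99.4 in WT + 2HG, and Nfatc4 at 92.3, 54.2 and 95.

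**Figure D3:**
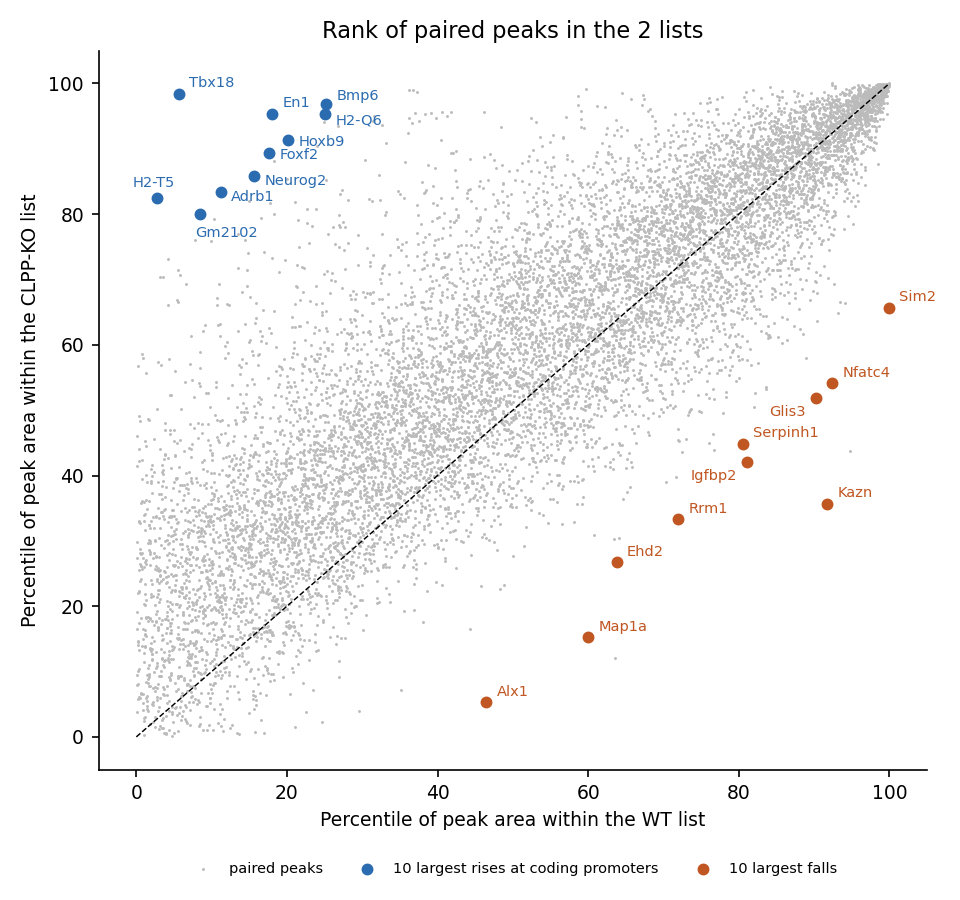
Percentile of peak area within the CLPP-KO list against the percentile within the WT list for 11120 pairs (grey), with the 10 coding promoters of largest difference upwards (blue) and downwards (orange). The dashed line marks equal percentile. Tbx18 moved from 5.68 to 98.5 and Kazn from 91.7 to 35.7.

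Across the 13 families of developmental regulators and ligands examined, 72 of 231 genes (31.2%) were gained and none was lost, against 7.08% and 0.357% of all coding genes. Another 117 had a peak in both lists and 42 in neither. With lists of equal length 57 were gained, against 4.02% of all coding genes, and 1 was lost. Of the 116 with a pair, 35 were at least 1.5-fold wider (30.2%, against 15.4% of all coding genes with a pair) and 7 narrower (against 1.58%). Among the pairs 37 ranked at least 10 points higher (31.9%, against 18.2%) and 24 lower (20.7%, against 22.5%). Their starts had a median GC content of 61.5%, against 56.8% for all coding genes, and its part in these counts was not tested.

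Nkx genes, which pattern gut, heart and nervous system, had the highest gained share in the lists as deposited, 9 of 14. With lists of equal length 6 of the 14 were gained, a smaller share than the 4 of 9 Pax genes. Examples were Nkx1-1 (percentile 40.3 in CLPP-KO), Nkx6-2 (33.2) and Nkx2-5 (27.2). Of the Pax genes 4 of 9 were gained, namely Pax7 (51.7), the marker of muscle stem cells, Pax3 (50.2), Pax6 (29.5) and Pax5 (28.7). Of the Lhx and Isl genes 4 of 10 were gained, of the Tbx genes 5 of 14, of the Irx genes 2 of 6, of the Wnt ligands 5 of 19, of the Fox genes 11 of 42, of the Sox genes 4 of 18 and of the FGF, BMP and GDF ligands 8 of 40. Within the Sox and Irx families several genes already marked in WT also ranked far higher in CLPP-KO: Sox11 went from percentile 37.3 to 98.7, Sox21 from 2.82 to 57.3 and Irx5 from 36.3 to 99.0. A few members moved the other way, among them Dlx5 (70.3 to 39), Fgf10 (48.8 to 23.3) and Fgf18 (80.2 to 59.7).

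The 4 Hox clusters are described one by one, and the differences between them were not tested. Of all coding genes 7.08% were gained. Of all coding genes with a pair, 18.2% ranked at least 10 points higher among the pairs and 22.5% lower. In the Hoxd cluster 7 of 9 genes were gained, with Hoxd9 at percentile 86.4, Hoxd3 at 57.6 and Hoxd8 at 54.9. In the Hoxb cluster 4 of 10 were gained, with Hoxb2 at 80.7 and Hoxb8 at 56.4, and all 4 genes with a pair ranked at least 10 points higher among the pairs, among them Hoxb4 (21.4 to 72.3). In the Hoxc cluster 3 of 9 were gained. The Hoxa cluster was marked in both lists at 10 of 11 genes, of which 1 ranked at least 10 points higher among the pairs and 4 lower. Hoxa5 went from percentile 88.9 to 58.0 and from 1912 bp to 1017 bp, and Hoxa3 from 79.7 to 65, while Hoxa9 went from 51.5 to 78.7 and Hoxa10 was gained. No Hox gene was lost. Neighbouring Hox genes share CpG islands and can share peaks, so the counts within a cluster are not independent.

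Of the lineage regulators of muscle and nervous system, 12 of 22 were gained (54.5%, against 7.08% of all coding genes), among them Myod1 (percentile 10.1), Sox2 (26.9) and Neurod2 (48.1), and none was lost. With lists of equal length 7 were gained, against 4.02% of all coding genes.

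**Figure D4:**
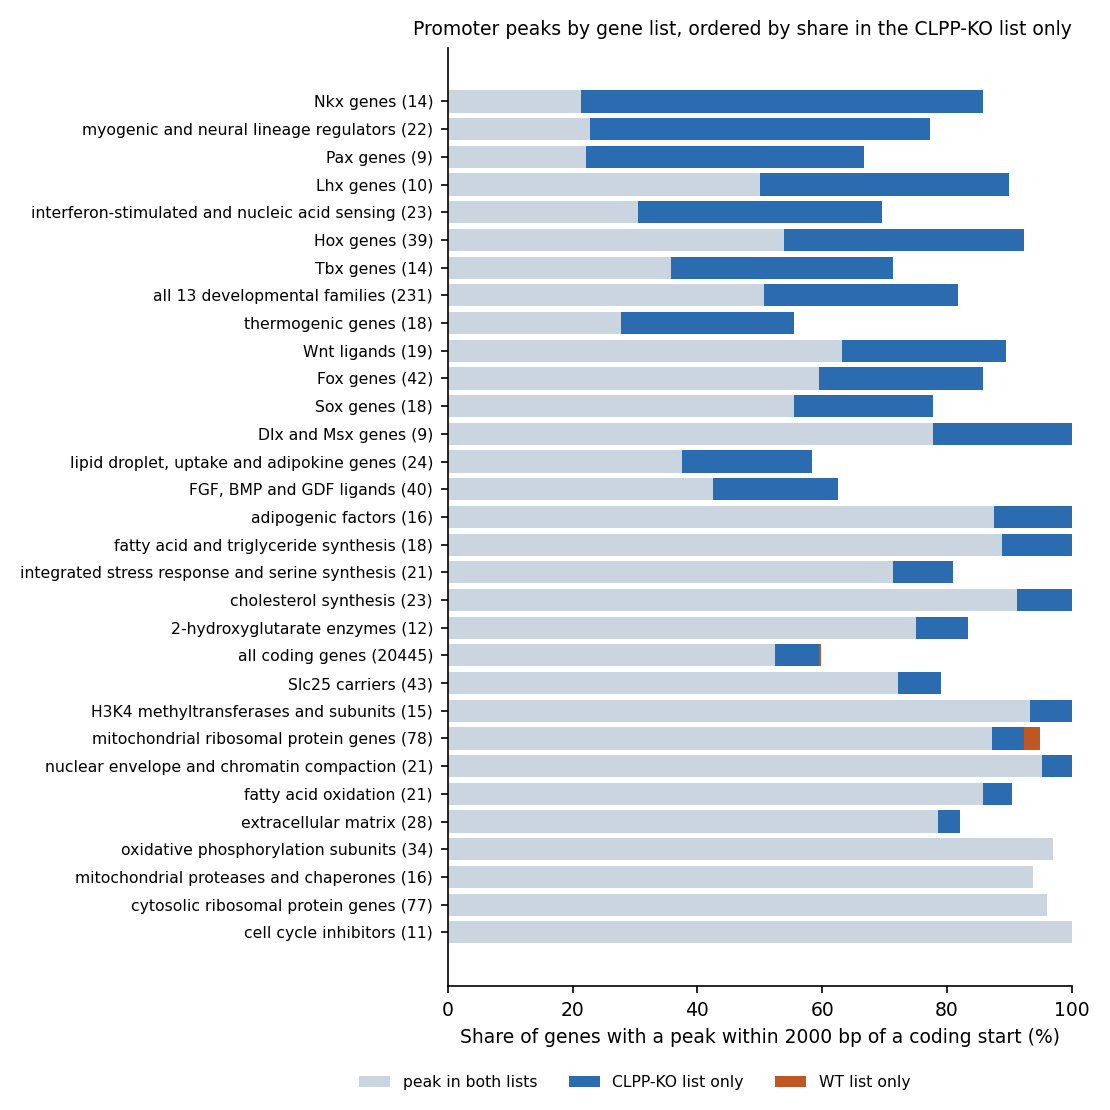
Share of the genes in each list or family (number of genes in parentheses) with a promoter peak in both lists, in the CLPP-KO list only and in the WT list only, in percent. Lists with fewer than 9 genes are not drawn. The blue segments run from 64.3% for Nkx genes to 0% for the 4 lists without a gained gene among those drawn, and for all coding genes the segment is 7.08%.

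Brown adipocyte genes showed the mark unevenly. Of 18 thermogenic genes 5 were gained (27.8%, against 7.08% of all coding genes), 5 were marked in both lists and 8 in neither. The gained genes were Lhx8 at percentile 74.9, Esrrg, an orphan nuclear receptor of oxidative metabolism, at 39.3, Cidea, a lipid droplet protein of brown fat, at 32.2 (chr18:67476457-67477326), Kcnk3, a potassium channel, at 27.6, and Otop1 at 22.9. All 5 were also gained with lists of equal length. Of the genes marked in both lists, Adrb1, Zic1 and Ppara ranked higher in CLPP-KO. Esrra, an orphan nuclear receptor, went from percentile 48.8 to 47.8 and lay 12.6 points lower among the pairs, and Ppargc1b passed no threshold. Zic1, a marker of classical brown fat, went from percentile 27.4 to 78.8, and Ppara, a nuclear receptor of fatty acid oxidation, from 48.6 to 87.5. Ucp1, the uncoupling protein that defines the brown adipocyte, had no promoter peak in either list, and neither did Ppargc1a, Dio2, Adrb3, Elovl3, Cox7a1, Cox8b or Bmp8b.

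Among adipocyte genes, Pparg and Cebpa, the core adipogenic factors, were marked in both lists. Pparg went from percentile 16.2 to 35.8 within the lists, a difference of 6.01 points among the pairs. Cebpa went from 94.8 to 98.8. Of the 16 adipogenic factors 2 were gained (12.5%, against 7.08% of all coding genes, and 1 with lists of equal length), Ebf2 (percentile 21.0), a determination factor of brown preadipocytes, and Nr1h3 (5.78). Klf5 went from 95.1 to 78.5 and Zfp423, a preadipocyte factor, from 80.9 to 98.7. Of the 24 lipid droplet, uptake and adipokine genes 5 were gained (20.8%), namely Lpl, the lipoprotein lipase (percentile 45.8), Plin1, which coats lipid droplets (32.4), G0s2, an inhibitor of lipolysis (26.2), Plin5 (15.2) and Plin3 (5.29). The Plin1 peak (chr7:79371035-79371603) lay near the 3′ end of the gene (chr7:79369966-79382718, minus strand). It counted through an annotated coding start inside the gene and not through the start at the 5′ end. With lists of equal length 3 genes of this list were gained, against 4.02% of all coding genes. Adipoq, Fabp4, Lipe and Cd36 had no promoter peak in either list.

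The defining markers of other cell types were checked in the same way. All 4 macrophage markers (Ptprc, Adgre1, Csf1r, Cd68) were unmarked in both lists, as were 3 of 4 endothelial markers. Of 5 myogenic markers 3 were gained, Pax7, Myod1 and Des, and Myog and Myf5 were unmarked. Of 3 autosomal neuronal markers Neurog2 and Tubb3 were marked in both lists, at least 1.5-fold wider in CLPP-KO and 69.2 and 13.5 points higher among the pairs, and Neurod1 was unmarked. Of 6 preadipocyte or fibroblast markers 4 were marked in both lists, Thy1 was gained at percentile 21.1 and Ly6a was unmarked. Whether other cell types had a part in the counts of developmental and lineage genes was not tested. Of 8 brown adipocyte markers 4 were unmarked in both lists, so that the labelled cell type was only partly visible in this mark.

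Genes of lipid synthesis were marked in both lists with few exceptions. In fatty acid and triglyceride synthesis 16 of 18 genes and in cholesterol synthesis 21 of 23 were marked in both. The other 2 of each were gained (11.1% and 8.70%, near the 7.08% of all coding genes). With lists of equal length 1 of each was gained, against 4.02% of all coding genes. Among the gained genes were Acacb (percentile 31.4), Scd1 (4.30) and Hsd17b7 (4.73). Srebf1, the regulator of lipogenesis, was 518 bp wide in WT and 669 bp in CLPP-KO, at percentiles 30.8 and 39.8, which is a difference of -3.66 points among the pairs. Srebf2, the regulator of cholesterol synthesis, was 1292 bp and 1399 bp wide, at percentiles 93.2 and 91.6. Cebpb lay at 97.0 and 95.9. None of these 3 passed the thresholds of 1.5-fold in width or 10 points in percentile. The direction of rank in the cholesterol list depended on the scale. Among the pairs 3 of 21 genes lay at least 10 points higher and 8 lower, against 18.2% and 22.5% of all coding genes with a pair, whereas within the lists 8 lay higher and 3 lower, against 34.6% and 7.48%. Insig2, a retention factor of SREBP, went from 3.78 to 48.0 and Sc5d, a sterol desaturase, from 85.7 to 64.2.

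Interferon-stimulated genes had a larger gained share than all coding genes in the lists as deposited. Of 23 genes 9 were gained (39.1%, against 7.08%), all with weak peaks: Oas1a at percentile 18.4, Usp18 at 18.1, Isg15 at 17.6, Ifit1 at 16.2, Oasl2 at 12.1, Rsad2 at 8.59, Rigi at 6.57, Oas2 at 6.09 and Irf9 at 2.35. Of these Usp18 and Rigi also had a peak in the WT + 2HG list. All 9 gained genes had their peak in bin 1 or 2 of the CLPP-KO list, where 82.8% and 68.9% of all peaks were gained. With lists of equal length 3 of the 23 were gained and 1 was lost, against 4.02% and 1.72% of all coding genes. Of the 7 genes marked in both lists 5 lay at least 10 points lower among the pairs and none higher, against 22.5% and 18.2%, and within the lists 2 lay lower and 1 higher, against 7.48% and 34.6%, with Ifih1, an RNA sensor, going from percentile 63.0 to 42.1 and Bst2 from 70.0 to 57.0.

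Cytosolic ribosomal protein genes ranked lower among the pairs more often than all coding genes did. Of 74 of these genes with a pair, 33 lay at least 10 points lower (44.6%, against 22.5% of all coding genes with a pair) and 5 higher (6.76%, against 18.2%), with a median of -9.21 points. Their median within the lists was also negative, at -2.70 points, against 4.74 for all coding genes. Rps25 went from percentile 83.6 to 53.5 and Rplp1 from 71.9 to 47.2, while Rpl7a went up from 56.3 to 83.0. None of the 77 genes of this family was gained or lost. For mitochondrial ribosomal protein genes the sign depended on the scale, with a median of -2.86 points among the pairs and 4.26 within the lists. Among the pairs 17 of 68 lay lower (25%, against 22.5%) and 3 higher (4.41%, against 18.2%). Within the lists 5 lay lower and 19 higher, against 7.48% and 34.6% of all coding genes with a pair. In this family 4 of 78 genes were gained (5.13%, against 7.08% of all coding genes) and 2 lost (Mrpl30 and Mrpl16, against 0.357%). Oxidative phosphorylation subunits had a median of -3.34 points among the pairs and of 0.949 points within the lists. Among the pairs 12 of 33 lay lower (36.4%, against 22.5%) and none higher (against 18.2%). Within the lists 5 of these subunits lay lower and 9 higher, against 7.48% and 34.6%.

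A list of enzymes linked to 2-hydroxyglutarate had a negative median on both scales, -12.2 points among the pairs and -6.25 within the lists. Not all of its members are named in the paper as making or removing 2-hydroxyglutarate. Of 9 with a pair, 6 lay at least 10 points lower among the pairs (66.7%, against 22.5% of all coding genes with a pair) and 3 within the lists (against 7.48%). On each scale 1 lay higher, against 18.2% among the pairs and 34.6% within the lists. Those lower among the pairs included Ldha, a lactate dehydrogenase, from percentile 89.2 to 71.7 and Mdh2 from 76.4 to 57.9. Idh3a, which the paper does not name as a source of 2-hydroxyglutarate, went from 88.1 to 76.7. Of the 12 listed genes 1 was gained (8.33%, against 7.08% of all coding genes, and 0 with lists of equal length), Mdh1 at percentile 7.64. D2hgdh, which oxidizes the D-form, had no promoter peak in either list. Phgdh, the first enzyme of serine synthesis and the source of D-2-hydroxyglutarate that the paper proposes, was at 67.2 and 70.5. In the integrated stress response list, to which Phgdh belongs, 7 of 15 genes with a pair lay lower among the pairs (46.7%, against 22.5%) and none higher (against 18.2%). Within the lists 3 lay lower and 2 higher, against 7.48% and 34.6% of all coding genes with a pair. Ddit3 went from 76.7 to 51.7 and Atf5 from 84.8 to 68.2. Of the 21 genes of this list 2 were gained (9.52%, against 7.08% of all coding genes, and 1 with lists of equal length). They were Gdf15, a stress-induced cytokine, at 20.7 and Pycr1 at 1.99. Of 15 mitochondrial proteases and chaperones with a pair 4 lay lower among the pairs (26.7%, close to the 22.5% of all coding genes) and none higher (against 18.2%). Within the lists 1 of these lay lower and 2 higher, against 7.48% and 34.6%. Trap1 went from 77.6 to 56.2.

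Writers and erasers of the mark and structural genes of the nucleus differed at single members. Of 14 paired H3K4 methyltransferase and subunit genes, 3 were at least 1.5-fold wider (21.4%, against 15.4% of all coding genes with a pair). Kmt2a widened from 1718 bp to 3377 bp and went from percentile 76.7 to 93.7. Kmt2d widened from 1850 bp to 2825 bp and Kmt2e from 1938 bp to 2929 bp. Among the pairs 2 of the 14 ranked higher (14.3%, against 18.2%) and 3 lower (21.4%, against 22.5%). Of the 15 genes of this list only Prdm9 was gained (6.67%, against 7.08%), at percentile 8.52. With lists of equal length 0 were gained. All 6 autosomal H3K4 demethylases were marked in both lists, none passed the threshold in width, and Kdm5a went from 90.8 to 80.8. In the nuclear envelope and chromatin compaction list 4 of 20 genes with a pair were at least 1.5-fold wider, against 15.4% of all coding genes with a pair, namely Lbr (1073 bp to 1636 bp), Cbx3, Tmpo and Suz12, and Syne1 was gained at percentile 30.1. Lmna, which encodes lamin A and C, was 1609 bp and 1620 bp wide, at percentiles 93.7 and 93.0. All 11 cell cycle inhibitors were marked in both lists, and Cdkn2b went from 44.6 to 69.8. The fatty acid oxidation list (1 of 21 gained), the extracellular matrix list (1 of 28) and the Slc25 carriers (3 of 43) lay at or below the 7.08% of all coding genes. In the extracellular matrix list Nid2 went from percentile 63.1 to 44.8 and from 1463 bp to 653 bp, while Lamb1 went from 38.5 to 68.2.

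Base composition moved with these differences. In 300 bp around the summit, gained peaks at coding starts held a median of 23 CpGs and 66.0% GC, kept CLPP-KO peaks 29 and 69.3%, and lost peaks 11 and 55.7%. Gained peaks were thus less CpG-rich than kept peaks as a whole, but richer than kept peaks of like percentile in each of the 4 bins below the median. Between percentiles 20 and 30 of the CLPP-KO list, gained coding-start peaks had a median of 26 CpGs (interval 25 to 27, n = 481) and kept ones 22 (21 to 22, n = 671). Away from coding starts, gained peaks held 21 CpGs and lost peaks 5.

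The rank of kept peaks followed the same gradient. In the quintile of pairs with the lowest GC content (median 56.7%), the median difference among the pairs was -5.90 points, 36.0% ranked at least 10 points lower and 5.89% higher. In the quintile with the highest GC content (median 67.8%), it was 3.98 points, with 11% lower and 33.2% higher. The share of wider peaks was 62.9% in the lowest and 82.3% in the highest quintile. The summit of the CLPP-KO peak lay in richer sequence than that of its WT partner, its 300 bp window being a median of 1.00 percentage point richer in GC in CLPP-KO (interval 0.667 to 1.00).

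Whether a gene without a WT promoter peak had one in CLPP-KO also varied with its GC content. Taking for each gene the most GC-rich 1000 bp window centred on any of its coding starts, 4.45% of unmarked genes were gained between 45% and 50% GC (85 of 1912), 29.7% between 55% and 60% (481 of 1622), and 69.8% at 70% or more (44 of 63, interval 57.6 to 79.8). Among unmarked genes of at least 60% GC, 39 of 47 developmental genes were gained (83.0%, interval 69.9 to 91.1), against 554 of 869 of all coding genes (63.8%, interval 60.5 to 66.9). The cytosolic ribosomal protein genes and the thermogenic genes had a median of 58.8% GC and the interferon-stimulated genes 52.1%. These GC strata were chosen after the data were seen. The part of base composition in the differences between conditions was not tested.

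**Figure D5:**
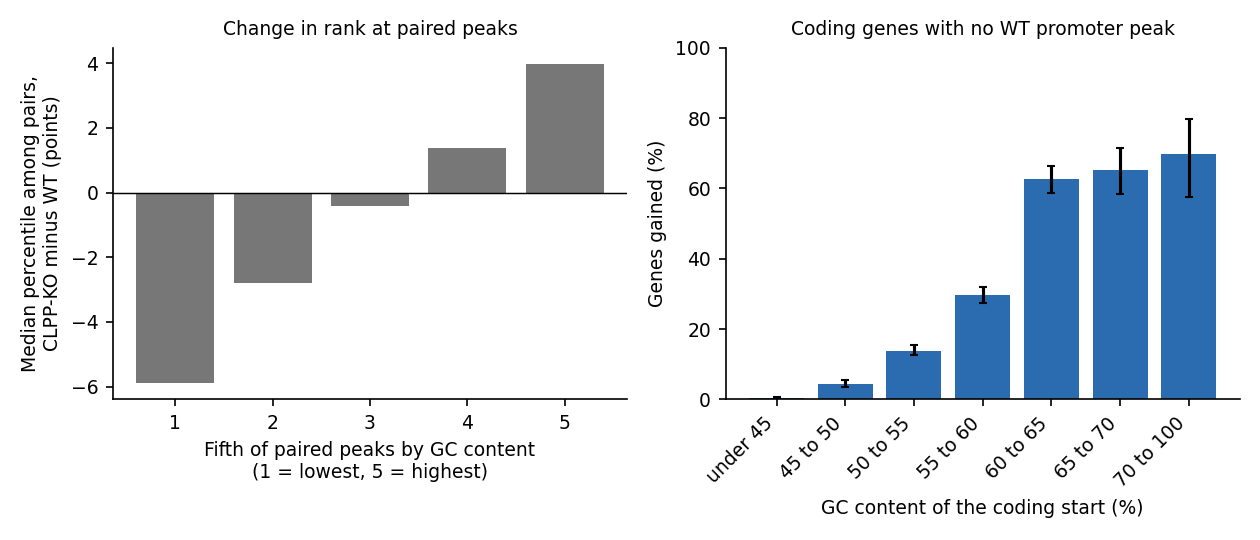
Left, median difference in percentile among paired peaks (CLPP-KO minus WT, in points) by quintile of GC content of the paired region, from -5.90 in the lowest to 3.98 in the highest. Right, share in percent of coding genes without a WT promoter peak that had one in CLPP-KO, by GC content around the coding start, with 95% Wilson intervals.

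Among gained, kept and lost windows, the shares of short promoter elements moved with base composition. The GC box GGGCGG, searched on both strands, occurred in 56.1% of gained coding-start windows (interval 54.0 to 58.2), in 66.0% of kept CLPP-KO windows, in 28.7% of lost windows and in 43.2% of windows of the same length centred on all coding starts. The CCAAT box CCAAT occurred in 19.4%, 13.7%, 24% and 33.3%, and the TATA box TATAAA in 3.03%, 1.09%, 5.85% and 9.23%. Of the windows printed above, that of Hoxa10 held the GC box. The C/EBP-ATF element TGATGNAA occurred in 1.15% of gained, 0.879% of kept and 2.92% of lost windows (5 of 171, interval 1.26 to 6.66), and in 2.88% of all coding starts. Windows of all coding starts were centred on the start site and not on a summit, so their shares are not directly comparable. These are matches of letters and not measured binding sites.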

How the data were processed

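The series measured H3K4me3 by ChIP-seq in CLPP-KO, WT and WT + 2HG cells, with 4 replicates and 1 input per condition. Per the methods and the submitters' processing notes, reads were trimmed with fastp 0.23.4 and mapped to GRCm39 with BWA 0.7.17, peaks were called with Genrich 0.6.1 on the 4 replicates together, their p-values being combined by Fisher's method, and deepTools 3.5.4 was also used. The deposited lists give each peak a score limited to 1000, which was not used, an area (a signal over the peak, at least 200) and the −log10 p at the summit, all written by the authors' caller. The stated settings name a q threshold and leave out X, Y, mitochondrial and unplaced sequence, yet the deposited lists give no q-value and hold peaks there. Sequencing depth per sample is unknown from these files, so intervals cover counts of peaks only.

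Chromosomes 1 to 19 of the WT and CLPP-KO lists were compared as stated above, with GENCODE vM39 starts. The named genes were the 20 strongest gained, the 10 strongest lost, the 10 largest differences each way in width and in percentile, and members of fixed gene lists that were gained, lost or past 1.5-fold in width or 10 points in percentile, together with members quoted for comparison. The members, the lists and the comparison were chosen with earlier results of these data known. Some genes and sequences that meet these rules are not reported here. Grouping followed the labels. Alternatives were lists of equal length, higher thresholds on area and summit p, stricter overlap, merged or single pairs, other promoter windows, other rankings, all chromosomes and, chosen after seeing the data, GC content. The pairing code was run on simulated lists and found 200 of 200 planted gained and 100 of 100 planted lost regions. The simulated regions lay far apart, so this recovery was set by the design and checks only that the code runs correctly. Split, merged or closely spaced peaks were not simulated. Python 3.11.15, NumPy 2.4.6, pandas 2.3.3, pysam 0.24.0 and matplotlib 3.10.9 were used.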

Additional observations from a re-analysis of the deposited data

Results flagged for a closer look

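Peaks outside chromosomes 1 to 19 were not used in the comparison. The CLPP-KO list held 413 peaks on X, 16 on Y, 217 on unplaced contigs and 11 on the mitochondrial genome. The WT list held 276, 1, 77 and 0. Each CLPP-KO count lay above the number obtained when the WT count was multiplied by 1.21, the ratio of CLPP-KO to WT peaks on chromosomes 1 to 19, which gives 333 for X, 1.21 for Y and 92.9 for contigs. Each count comes from 1 list per condition and has no replicate check.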

How the results depend on the processing

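No paired analysis was possible because each list pools its replicates, and leaving out single replicates could not be run for the same reason. Of the planned values 24 stayed within their limits, 31 moved and 2 reversed. The limits for counts are not given here, and counts that stayed within them still differed. Gained peaks, 3264 in the lists as deposited, ran in such settings from 2618 (nearby peaks merged) to 4170 (stricter overlap). Gained coding genes, 1447 in the lists as deposited, ran from 1411 (narrower promoter window) to 1888 (area threshold). The median difference in percentile at pairs, 5.65 points in the lists as deposited, reversed to -0.459 with lists of equal length and to -0.594 among the pairs alone, which is set by the added weak peaks of the longer list. With equal length, 1344 peaks were gained and 771 lost, 76.1% of the gained lay at a coding start, 72.2% of pairs were wider, and 822 coding genes were gained and 352 lost. For the gained counts that stayed within limits and for the values below, the cause was not tested. With areas of at least 1000, 28 peaks and 20 genes were lost, 80.3% of gained peaks lay at a start, the width ratio was 1.08, 70.1% of pairs were wider and the percentile difference was 7.29. With a summit p of at most 1e-05, 58 peaks and 33 genes were lost, the start share was 76.4% and the ratio 1.09. With an overlap of at least 50% of both peaks, 1697 were lost, the start share was 71.6%, the ratio 1.08, the wider share 69.5% and the percentile difference 4.81. With peaks within 1000 bp merged, 161 were lost, the start share was 62.3% and the percentile difference 6.26. Simple pairs gave a ratio of 1.09 and 70.1% wider, ranking by summit p a percentile difference of 7.64, and all chromosomes a start share of 63.6% and a difference of 6.08. Promoter windows of 1000 and 5000 bp gave start shares of 60.2% and 74.3%. In the quintiles of lowest and highest GC content, chosen after seeing the data, the ratio was 1.08 and 1.16, the wider share 62.9% and 82.3% and the percentile difference 2.97 and 9.78.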

Other observations

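Class I and class II genes of the mouse major histocompatibility complex, the H2 genes of chromosome 17, were looked at after H2-T5 and H2-Q6 had been seen among the largest differences, so their count is a description of a group chosen for its values. Of 37 H2 genes 12 had a promoter peak in both lists, 3 were gained (H2-Q1, H2-Q2 and H2-T22, at CLPP-KO percentiles 33.9, 39.2 and 23.5) and 22 had none. Of all coding genes 7.08% were gained, so the gained count of the H2 genes does not set them apart. Among the 12 pairs 6 ranked at least 10 points higher in CLPP-KO and none lower, against 18.2% and 22.5% of all coding genes with a pair. H2-Q7, a nonclassical class I gene, went from percentile 36.2 to 94.7, H2-Q10 from 12.0 to 66.2 and H2-T13 from 40.5 to 76.4. The classical class I genes H2-K1 and H2-D1, which present peptides on most cells, were near the top of both lists, at percentiles 95.5 and 97.9 for H2-K1 and 98.8 in each list for H2-D1. The Q and T genes are near-identical copies, and how reads were divided among them was not tested.

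Among gained peaks at noncoding starts, the strongest lay at Mir196b within the Hoxa cluster, 1437 bp wide at percentile 60.4 of the CLPP-KO list.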
